A study of Homo sapiens with 12 samples.

Results

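Amino acid transporters of the plasma membrane, with SLC7A5 first among them, were examined in CWR22Rv1, an established line of human prostate carcinoma cells grown from a xenograft that relapsed after castration. The 10 genes, of 13951 analysed, were SLC7A5, SLC3A2, SLC7A1, SLC7A6, SLC7A8, SLC7A11, SLC1A5, SLC38A1, SLC38A2 and SLC43A1, and each was found by its gene symbol. SLC7A5 was chosen by its measured CPM, because its mRNA was higher in HOXB13ko than in Control, so its values in that comparison are a description without a test. The other 9 were taken for their function, with earlier results of these data known. RNA-seq was available for 12 libraries in 4 groups of 3. Control cells expressed Cas9 and were given no guide RNA, and LV-MEIS1 cells expressed MEIS1 from a lentivirus. HOXB13ko cells were Cas9 cells in which HOXB13 was targeted by CRISPR, and they were a pool of re-combined clonal lines. HOXB13ko-LV-MEIS1 cells were made by infecting that pool with the MEIS1 lentivirus. All lines were kept in puromycin and RPMI medium with serum, and RNA was taken 48 h after seeding. Whether LV-MEIS1 cells also carry Cas9 is not given in the sources used here. The labels do not say that replicates came from separate cultures, so p-values measure the spread between these libraries, which may be technical.

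Cells import amino acids through transporters that differ in the substrates they accept and in what drives them. SLC7A5, also called LAT1, exchanges large neutral amino acids such as leucine for intracellular glutamine. It works as a light chain joined by a disulphide bond to the glycoprotein SLC3A2, also called 4F2hc or CD98, which carries it to the cell surface. SLC7A6, SLC7A8 and SLC7A11 are further light chains of the same heavy chain. SLC7A1 carries arginine and lysine and SLC43A1 carries leucine, both without SLC3A2. SLC1A5, SLC38A1 and SLC38A2 bring in glutamine and other small neutral amino acids together with sodium. Imported leucine and arginine are sensed by the mTORC1 pathway, and a shortage of amino acids raises translation of the transcription factor ATF4, whose known targets include several of these transporters. In prostate cancer cells, LAT1 and LAT3 (SLC43A1) are known routes of leucine uptake.

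All values are CPM, read counts scaled to library size in the authors' normalisation. Fold changes are differences of log2(CPM + 0.5), given ± SE from limma with n = 3 per group. A gene was called where limma's test against a fold change of 1.5 (treat) gave an adjusted p under 0.05 over all genes, and a second, weaker rule used limma's test against no change (eBayes). Step-based estimates of depth ranged from 17200000 to 28700000 reads, so that 3 reads correspond to between 0.105 and 0.175 CPM, far below the members' values. MEIS1 mRNA was 47.4 ± 1.96 CPM (SD, n = 3) in LV-MEIS1 and 29.7 ± 0.36 CPM in HOXB13ko-LV-MEIS1, so exogenous expression was not equal in these lines, against 4.25 ± 0.20 CPM in Control and 3.56 ± 0.12 CPM in HOXB13ko. HOXB13 mRNA went against its label, with 307 to 347 CPM in HOXB13ko against 185 to 215 CPM in Control, and 326 to 375 CPM in HOXB13ko-LV-MEIS1 against 150.1 to 152 CPM in LV-MEIS1. Gene-level CPM cannot show whether that transcript is edited or translated, and every direction below is drawn from the labels. The 11 prostate epithelial markers examined were all detected, with summed levels between 3274 and 3465 CPM in 9 libraries and between 2800 and 2865 CPM in LV-MEIS1. Of 7 fibroblast markers, COL1A1 and PDGFRB were listed, and their sum was 30.2 to 34.9 CPM in LV-MEIS1 and 14.6 to 20.8 CPM elsewhere. That sum is nearly all COL1A1, with a mean of 14.5 CPM in Control and 32.8 CPM in LV-MEIS1, whereas PDGFRB went the other way, with 1.41 CPM and 0.266 CPM. Endothelial and leukocyte markers were not analysed here. The part of these differences in the results on LV-MEIS1 was not tested, and in bulk RNA fewer cells of a type and less RNA per cell cannot be told apart.

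SLC7A5 (ENSG00000103257) lies on the minus strand at chr16:87830023-87869507 in GRCh38. Its mRNA was 211, 236 and 199 CPM in the Control libraries and 57.5, 48.2 and 52.6 CPM in LV-MEIS1. It was 1853, 1726 and 1599 CPM in HOXB13ko and 1706, 1771 and 1979 CPM in HOXB13ko-LV-MEIS1. The 6 libraries labelled HOXB13ko were the highest, with groups that overlapped, LV-MEIS1 was lowest, and Control lay between them without overlap. The HOXB13ko mean was 8.02-fold that of Control, a log2 fold change of 3.001 ± 0.08, which is the rise for which the gene was picked. In LV-MEIS1 against Control, SLC7A5 fell, with a 4.08-fold lower mean, a log2 fold change of -2.02 ± 0.08 and a limma treat adjusted p of 5.3e-09. This comparison shares the Control libraries with the one that chose the gene.

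The comparison of HOXB13ko-LV-MEIS1 with LV-MEIS1, called the MEIS1 pair, had no library in common with that choice and gave the largest contrast. SLC7A5 mRNA was 34.5-fold higher in HOXB13ko-LV-MEIS1 (1819 ± 143 CPM, SD, n = 3) than in LV-MEIS1 (52.8 ± 4.64 CPM). The log2 fold change was 5.10 ± 0.08 (limma treat adjusted p = 1.1e-14), the highest of the 13951 genes in this comparison, and it stayed between 5.03 and 5.16 when any library was left out. HOXB13ko-LV-MEIS1 descends from the same knockout pool, so these libraries are not a separately derived knockout. Within the libraries labelled HOXB13ko, MEIS1 was not accompanied by a detectable difference in SLC7A5. The log2 fold change of HOXB13ko-LV-MEIS1 against HOXB13ko was 0.08 ± 0.08, with a 95% interval from -0.10 to 0.25 and a limma eBayes adjusted p of 0.69. That comparison shares the HOXB13ko libraries with the one that chose the gene, so its p is no independent test of SLC7A5. The difference of the MEIS1 effects, LV-MEIS1 against Control less HOXB13ko-LV-MEIS1 against HOXB13ko, was -2.09 ± 0.11 on the log2 scale, given as a description because the comparison that chose the gene is part of it.

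The sequence upstream of SLC7A5 is shown because this gene had the largest change. The RefSeq window in GRCh38.p14, chr16:87869458-87869757 on the minus strand, runs from 250 bases before the start to 50 bases after it. The capitals mark an E-box, the letters CACGTG, which MYC-type and related factors are known to bind. It begins at position -130, counting the start base as 1 and the base before it as -1.
SLC7A5: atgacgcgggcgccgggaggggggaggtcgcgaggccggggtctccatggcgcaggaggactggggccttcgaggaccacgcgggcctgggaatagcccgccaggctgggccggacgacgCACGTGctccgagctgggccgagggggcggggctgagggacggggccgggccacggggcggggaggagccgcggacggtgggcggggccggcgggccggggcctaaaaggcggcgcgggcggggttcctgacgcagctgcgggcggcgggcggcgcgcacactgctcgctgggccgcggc
The same letters, which read alike on both strands, are in 7.26% of the 35116 promoter windows of this length.

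SLC3A2 (ENSG00000168003, plus strand, chr11:62856004-62888880), the heavy chain, followed the same order of groups over a smaller range. It was 78.8, 87.3 and 78.7 CPM in Control and 57.3, 56.0 and 59.7 CPM in LV-MEIS1. It was 327, 307 and 294 CPM in HOXB13ko and 308, 293 and 350.4 CPM in HOXB13ko-LV-MEIS1. As for the light chain, the 6 libraries labelled HOXB13ko overlapped and stood above the other groups, and Control stood above LV-MEIS1. SLC3A2 was 3.79-fold higher in HOXB13ko than in Control, with a log2 fold change of 1.92 ± 0.07 and a limma treat adjusted p of 1.2e-08. It was 5.50-fold higher in HOXB13ko-LV-MEIS1 than in LV-MEIS1, with a log2 fold change of 2.45 ± 0.07 and a limma treat adjusted p of 2.8e-11. Its difference of -0.50 ± 0.07 between LV-MEIS1 and Control did not pass treat and had a limma eBayes adjusted p of 4.1e-05. Between HOXB13ko-LV-MEIS1 and HOXB13ko the log2 fold change was 0.03 ± 0.07, with a 95% interval from -0.11 to 0.18.

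RefSeq gives 3 starts for SLC3A2, and the window around the third, chr11:62881449-62881748 on the plus strand of GRCh38.p14, is shown because it holds the core of a C/EBP-ATF response element, TGATGNAA, to which ATF4 dimers are known to bind. The capitals mark the match, which is on the minus strand and is therefore written as TTACATCA.
SLC3A2: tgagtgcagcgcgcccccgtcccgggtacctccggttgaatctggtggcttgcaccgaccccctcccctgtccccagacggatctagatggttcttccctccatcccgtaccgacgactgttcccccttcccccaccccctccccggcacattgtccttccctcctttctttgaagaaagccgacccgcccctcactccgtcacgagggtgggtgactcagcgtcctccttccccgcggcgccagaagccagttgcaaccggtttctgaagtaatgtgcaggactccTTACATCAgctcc
The match begins at position 38, and neither of the other SLC3A2 windows holds one. TGATGNAA was found, on either strand, in 3.62% of the 35116 windows. RefSeq windows were matched for 9 of the 10 members, and 4 of their 18 windows held TGATGNAA, in SLC1A5, SLC38A1, SLC3A2 and SLC7A1. CACGTG was in 4 of the 18 windows, in SLC1A5, SLC43A1, SLC7A5 and SLC7A8. The letters TGACAG, a core bound by MEIS and related factors, were in 15.8% of all windows and in 0 of the 18. The letters CCAATAAA, known as a HOXB13 motif, were in 0.934% of all windows and in 0 of the 18. A match is a description of letters and shows no binding, and the absence of a match says only that these letters are not in these windows.

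**Figure D1:**
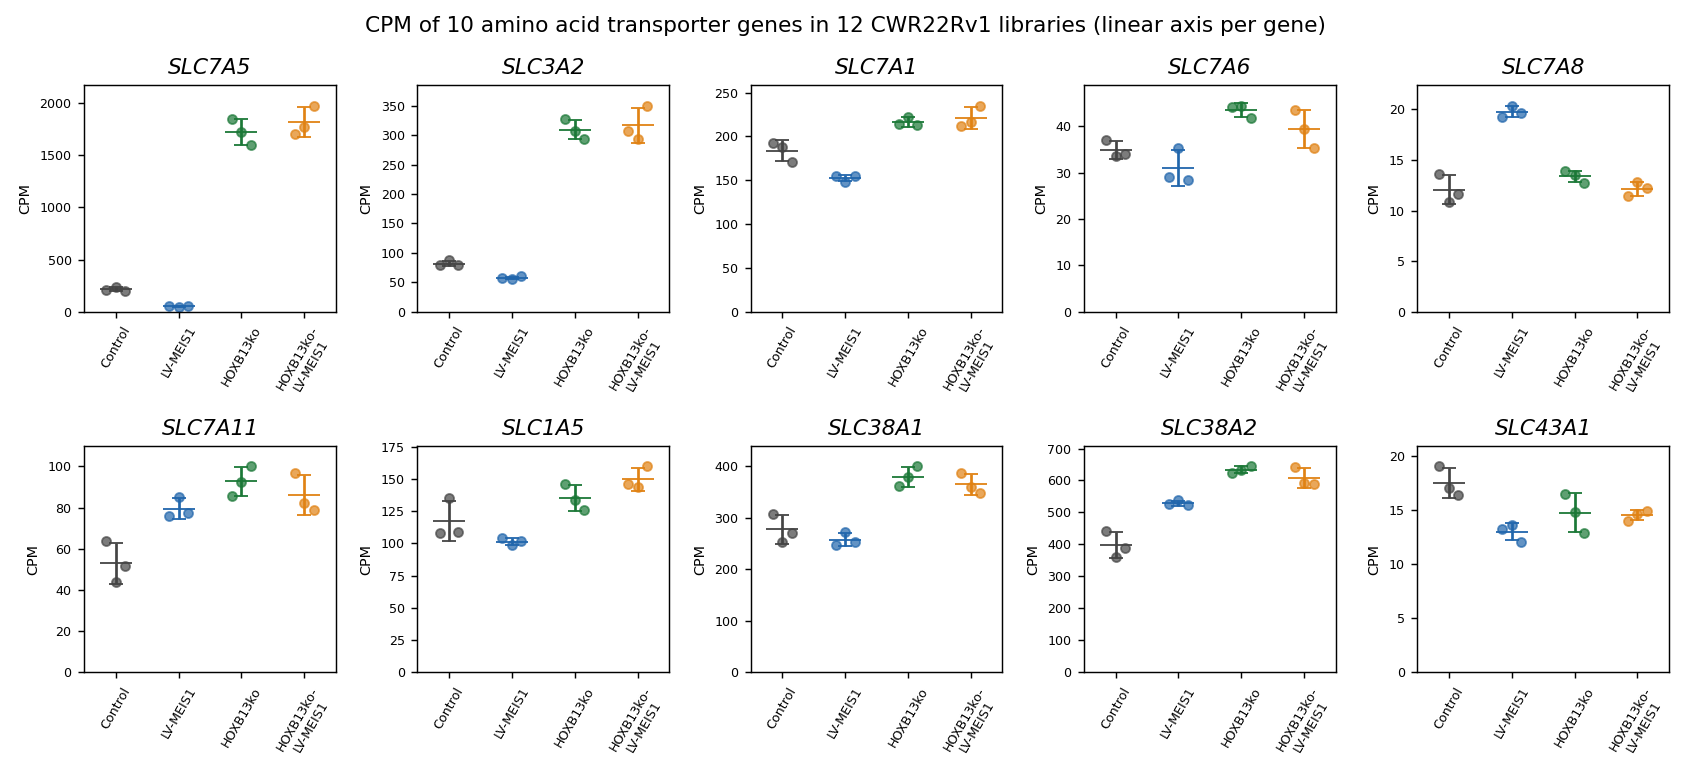
CPM (linear vertical axis, one scale per gene) of the 10 transporter genes in the 4 groups. Points are libraries, horizontal lines are group means and bars are ± SD (n = 3). SLC7A5 spans 48.2 to 1979 CPM, whereas SLC38A1 spans 248 to 400.3 CPM.

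SLC7A5 and its heavy chain did not change in proportion. The ratio of SLC7A5 to SLC3A2 in CPM was 2.64 ± 0.10 (SD, n = 3) in Control, 0.915 ± 0.08 in LV-MEIS1, 5.57 ± 0.12 in HOXB13ko and 5.75 ± 0.27 in HOXB13ko-LV-MEIS1. Levels of different genes can be compared only per length, and per kb of merged exons the ratio was 3.54, 1.23, 7.48 and 7.71 in the same order. It was lower with the length of the longest transcript, at 1.65, 0.571, 3.48 and 3.59, since the merged exons of SLC3A2 (6392 bp) are longer than its longest transcript (2843 bp). SLC7A5 therefore exceeded its heavy chain per length in Control and in the libraries labelled HOXB13ko on both lengths. In LV-MEIS1 the order of these genes depended on the length used.

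The makeup of the light chains shifted with it. Among the light chain genes analysed (SLC7A5, SLC7A6, SLC7A7, SLC7A8 and SLC7A11, with SLC7A10 not analysed here), SLC7A5 made up 78.4 ± 3.02% (SD, n = 3) of the summed CPM per kb in Control and 41.0 ± 3.68% in LV-MEIS1. It made up 95.3 ± 0.48% in HOXB13ko and 95.8 ± 0.64% in HOXB13ko-LV-MEIS1. SLC7A11, the cystine carrier, made up 9.58 ± 1.94% in Control and 30.5 ± 1.75% in LV-MEIS1, and it was 2.54% and 2.25% in HOXB13ko and HOXB13ko-LV-MEIS1. SLC7A8 (LAT2), which takes a wider range of neutral amino acids than LAT1, was 3.51% in Control, 12.2% in LV-MEIS1, and 0.588% and 0.511% in the libraries labelled HOXB13ko. The sum of the light chains was 57.6 ± 3.35 CPM per kb in Control and 27.0 ± 0.55 in LV-MEIS1, and 380.3 ± 26.0 and 398 ± 28.7 in HOXB13ko and HOXB13ko-LV-MEIS1. Per kb of merged exons, that was 4.52, 2.995, 7.85 and 8.05 light chain units for each unit of SLC3A2 mRNA. With the longest transcripts as length it was 2.15, 1.48, 3.66 and 3.76, and neither set says anything of the amounts of protein. SLC7A5 dominates these shares, so they are no separate finding on it. The pseudogenes SLC7A5P1 and SLC7A5P2 can share reads with SLC7A5 and were not analysed here.

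**Figure D2:**
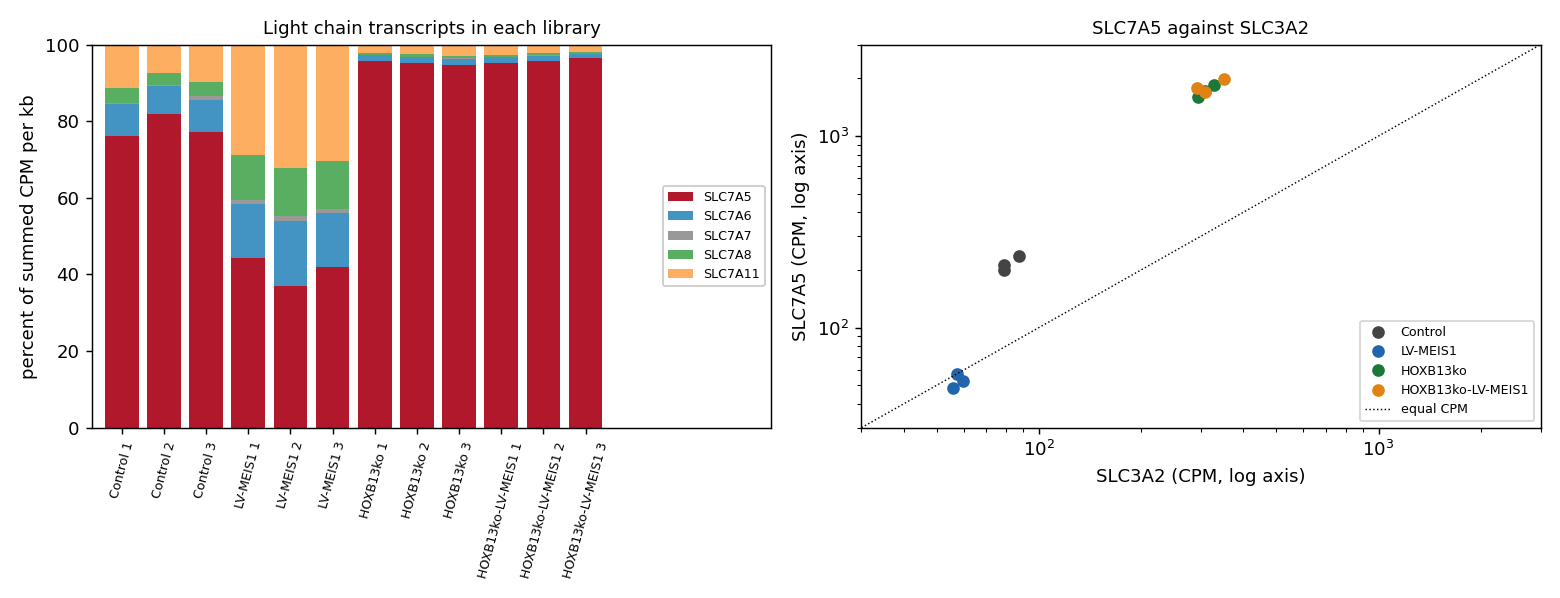
Left, share of each SLC3A2-partner light chain in the summed CPM per kb of merged exons (percent, vertical axis) in each of the 12 libraries. Right, SLC7A5 against SLC3A2 (CPM, both axes logarithmic), one point per library. SLC7A5 takes 37.0% to 44.2% of the bar in LV-MEIS1 and 94.8% to 96.5% in the 6 libraries labelled HOXB13ko.

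Counted over the 10 members, the strict rule called no gene beyond SLC7A5 and SLC3A2 in the 5 contrasts. In LV-MEIS1 against Control, 1 member was called by treat, SLC7A5, where 3.99% of all genes were called and 2.24% were called as lower. In HOXB13ko against Control, 2 of 10 were called, both higher, where 1.41% of all genes were called and 0.652% as higher. SLC7A5 was picked there, so SLC3A2 is the member that the count adds. The MEIS1 pair gave the same genes, 2 of 10 and both higher, where 6.71% of all genes were called and 3.29% as higher. In the difference of the MEIS1 effects, where the SLC7A5 value is a description, limma's treat called 0 of the other 9 members and 2.93% of all genes, and SLC7A8 alone of the 9 had an unadjusted treat p under 0.05. Of the 10 members, 0 were called in HOXB13ko-LV-MEIS1 against HOXB13ko by limma's treat, where 0.00717% of all genes were called, and 0 had an unadjusted treat p under 0.05, where 0.0645% did. By eBayes the count in that comparison was also 0, against 0.0502% of all genes. All 10 of its 95% intervals lay between -0.35 and 0.32 on the log2 scale, and its groups overlapped for every member, whereas 21.1% of all genes had no overlap. SLC7A5, whose choice used the HOXB13ko libraries, is 1 of the 10.

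By the weaker eBayes rule, 7 members passed in LV-MEIS1 against Control, where 44.5% of all genes did. SLC7A8, SLC7A11 and SLC38A2 were the 3 that passed as higher and SLC7A5, SLC3A2, SLC7A1 and SLC43A1 the 4 that passed as lower, where 23.2% of all genes passed as higher and 21.3% as lower. In HOXB13ko against Control, 7 members passed eBayes as higher, where 32.9% of all genes passed and 16.5% passed as higher. They include SLC7A5, which was chosen there, and 6 of the other 9. In the MEIS1 pair 8 members passed, 7 higher and SLC7A8 lower, where 50.1% of all genes passed, 24% as higher and 26.1% as lower. In the difference of the MEIS1 effects, 7 of the 9 members other than SLC7A5 passed eBayes, where 34.2% of all genes did. The members had a median log2 fold change of 0.39 in HOXB13ko against Control and 0.42 in the MEIS1 pair, beside medians over all genes of -0.00 and -0.02. In LV-MEIS1 against Control their median was -0.19, beside 0.01 over all genes. Without SLC7A5 these medians were 0.31, 0.35 and -0.18. The compared groups did not overlap for 7 members in HOXB13ko against Control, SLC7A5 included (44.9% of all genes), 8 in the MEIS1 pair (58.3%) and 8 in LV-MEIS1 against Control (51.3%).

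**Figure D3:**
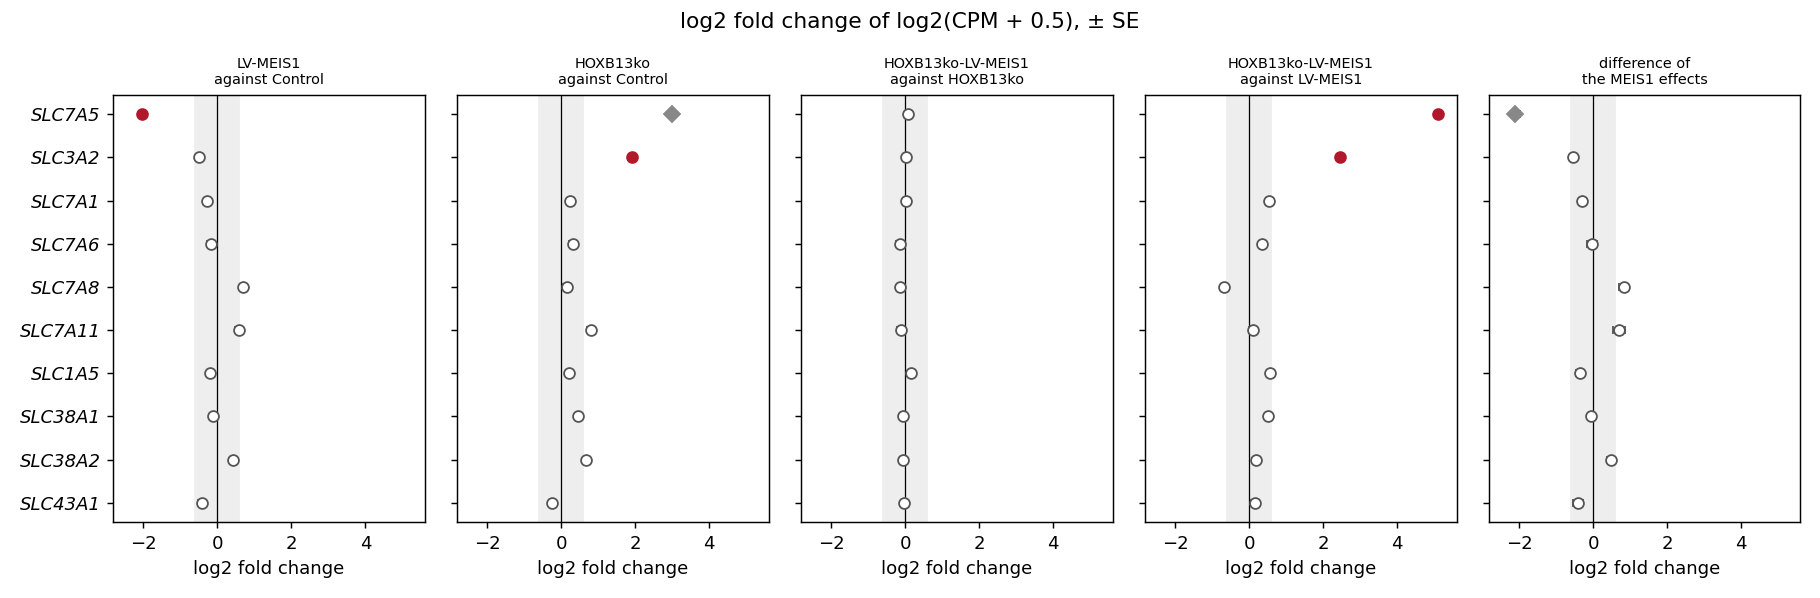
log2 fold change of log2(CPM + 0.5) for the 10 members in the 4 pairwise comparisons and in the difference of the MEIS1 effects (horizontal axis, bars ± SE, many shorter than the symbol). Filled circles passed limma's treat, open circles did not, diamonds are SLC7A5 values given as a description, and the grey band covers fold changes under 1.5. For HOXB13ko-LV-MEIS1 against HOXB13ko all 10 values lie between -0.14 and 0.15.

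Of the remaining light chains, SLC7A8 and SLC7A11 were higher in LV-MEIS1 than in Control. SLC7A8 (minus strand, chr14:23125295-23183674) was 13.7, 10.9 and 11.7 CPM in Control, 19.3, 20.4 and 19.7 CPM in LV-MEIS1, 13.9, 13.5 and 12.8 CPM in HOXB13ko and 11.5, 12.8 and 12.2 CPM in HOXB13ko-LV-MEIS1. LV-MEIS1 stood above all other libraries, and the other groups overlapped. LV-MEIS1 differed from Control by 0.70 ± 0.09 on the log2 scale (limma eBayes adjusted p = 2.2e-05). In the MEIS1 pair SLC7A8 had -0.68 ± 0.09 (limma eBayes adjusted p = 1.9e-05), and it was the single member that fell there by that rule. SLC7A11 (minus strand, chr4:138164097-138242349), which exchanges glutamate for cystine and so feeds glutathione synthesis, was lowest in Control. It was 63.7, 43.9 and 51.5 CPM there, 75.9, 85.2 and 77.4 CPM in LV-MEIS1, 85.6, 92.4 and 100.0 CPM in HOXB13ko and 97.0, 82.2 and 78.7 CPM in HOXB13ko-LV-MEIS1. Control did not overlap with any other group, and the other groups overlapped in part. SLC7A11 rose by 0.59 ± 0.11 in LV-MEIS1 and by 0.81 ± 0.11 in HOXB13ko on the log2 scale, with limma eBayes adjusted p-values of 6.6e-04 and 1e-04. HOXB13ko-LV-MEIS1 and LV-MEIS1 differed by 0.11 ± 0.11 in this gene, with a 95% interval from -0.13 to 0.35. SLC7A6 (plus strand, chr16:68264516-68301823), which exchanges arginine and lysine for neutral amino acids, ranged from 28.4 to 44.5 CPM over all libraries. Against Control, HOXB13ko was 0.31 ± 0.09 higher on the log2 scale (limma eBayes adjusted p = 0.016), and that p rose to 0.057 without Control replicate 2, 0.05 without Control replicate 3 and 0.054 without HOXB13ko replicate 2, all just past the threshold. The MEIS1 pair gave 0.35 ± 0.09 (limma eBayes adjusted p = 0.005). LV-MEIS1 and Control differed by -0.18 ± 0.09, with a limma eBayes adjusted p of 0.12 that became 0.02 without LV-MEIS1 replicate 2. Exons of SLC7A6 overlap SLC7A6OS on the opposite strand, and since strand was not used in quantification its values are uncertain.

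SLC7A1 (CAT1, minus strand, chr13:29509414-29595688), a carrier of arginine and lysine, was 192, 188 and 170.4 CPM in Control, 155, 148 and 154 CPM in LV-MEIS1, 214, 222 and 213 CPM in HOXB13ko and 212, 216 and 235 CPM in HOXB13ko-LV-MEIS1. The order of its groups was that of SLC7A5, with all libraries labelled HOXB13ko above Control and all of LV-MEIS1 below it. The sizes were small. They were -0.27 ± 0.06 on the log2 scale for LV-MEIS1 and 0.24 ± 0.06 for HOXB13ko, each against Control, and 0.54 ± 0.06 for the MEIS1 pair, with limma eBayes adjusted p-values of 0.0014, 0.0053 and 1.7e-06. SLC43A1 (LAT3, minus strand, chr11:57484534-57515780), which takes leucine without exchange, was 16.4 to 19.1 CPM in Control and 12.1 to 13.6 CPM in LV-MEIS1, a log2 fold change of -0.41 ± 0.09 (limma eBayes adjusted p = 0.0028). It was 12.9 to 16.5 CPM in HOXB13ko and 14.04 to 14.9 CPM in HOXB13ko-LV-MEIS1. HOXB13ko and Control differed by -0.24 ± 0.09, which had a limma eBayes adjusted p of 0.063, and of 0.024 without HOXB13ko replicate 1. The leucine carriers SLC7A5 and SLC43A1 thus had opposite signs in that comparison, and SLC43A1 did not pass the test.

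The sodium-coupled carriers changed less than the SLC7A5 pair. SLC38A2 (SNAT2, minus strand, chr12:46358188-46372773), a gene known to be induced when amino acids are short, was 443, 361 and 389 CPM in Control, 525, 538 and 523 CPM in LV-MEIS1, 624, 632 and 644 CPM in HOXB13ko and 643, 593 and 588 CPM in HOXB13ko-LV-MEIS1. Control was lowest and LV-MEIS1 lay between it and the libraries labelled HOXB13ko, which overlapped. SLC38A2 rose in LV-MEIS1 by 0.41 ± 0.06 and in HOXB13ko by 0.68 ± 0.06 on the log2 scale (limma eBayes adjusted p = 1.2e-04 and 3.2e-06). Its difference of 0.20 ± 0.06 in the MEIS1 pair had a limma eBayes adjusted p of 0.017, which became 0.052 without LV-MEIS1 replicate 3, 0.076 without HOXB13ko-LV-MEIS1 replicate 1, 0.054 with libraries scaled to an equal sum and 0.085 with quantile normalisation. SLC38A1 (SNAT1), which lies on the same strand at chr12:46183063-46270017 and carries glutamine and alanine, lay between 253 and 309 CPM in Control, 248 and 272 CPM in LV-MEIS1, 362 and 400.3 CPM in HOXB13ko and 347 and 387 CPM in HOXB13ko-LV-MEIS1. The libraries labelled HOXB13ko stood above the others. On the log2 scale it rose by 0.46 ± 0.07 in HOXB13ko over Control and by 0.50 ± 0.07 in the MEIS1 pair, with limma eBayes adjusted p-values of 2.5e-04 and 3.8e-05.

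SLC1A5 (ASCT2, minus strand, chr19:46774883-46788594), a carrier of the glutamine that SLC7A5 can use for exchange, was 108, 136 and 109 CPM in Control, 104, 98.5 and 102 CPM in LV-MEIS1, 146, 133 and 126 CPM in HOXB13ko and 146, 144 and 159.8 CPM in HOXB13ko-LV-MEIS1. Control replicate 2 lay within the range of HOXB13ko, and the MEIS1 lines were clearly apart. SLC1A5 was 0.56 ± 0.08 higher on the log2 scale in HOXB13ko-LV-MEIS1 than in LV-MEIS1 (limma eBayes adjusted p = 4.8e-05). Between HOXB13ko and Control the difference was 0.20 ± 0.08 (limma eBayes adjusted p = 0.064), and it was 0.31 with an adjusted p of 0.0045 in limma without Control replicate 2. Between LV-MEIS1 and Control it was -0.21 ± 0.08, with a limma eBayes adjusted p of 0.051. That p crossed the threshold with scaling by median of ratios (0.044) and without Control replicate 1 (0.024), Control replicate 3 (0.037), HOXB13ko replicate 1 (0.045), HOXB13ko replicate 3 (0.048) or HOXB13ko-LV-MEIS1 replicate 3 (0.049). Since strand was not used, the values of SLC1A5 are uncertain as well. Antisense RNAs that overlap exons of SLC7A5 and SLC7A11 were not analysed here. A long noncoding RNA that overlaps exons of SLC7A8 on the same strand was not analysed either, which limits the values of SLC7A8.

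Per kb of merged exons, the order of the members differed between groups at its top. In Control, SLC38A2 was highest at 61.1 ± 6.35 CPM per kb (SD, n = 3), followed by SLC7A5 at 45.2 ± 3.99, SLC1A5 at 35.3 ± 4.67 and SLC38A1 at 27.7 ± 2.84. In LV-MEIS1, SLC7A5 was at 11.1 ± 0.97 CPM per kb, below SLC38A2 (81.2 ± 1.22), SLC1A5, SLC38A1 and SLC7A1. In HOXB13ko, SLC7A5 was highest at 362 ± 26.6 CPM per kb, with SLC38A2 next at 97.3 ± 1.61 and then SLC3A2 at 48.4 ± 2.63. HOXB13ko-LV-MEIS1 had the same leading genes, at 382 ± 29.99, 93.4 ± 4.65 and 49.6 ± 4.68 CPM per kb. SLC7A8 was lowest in all 4 groups, at 2.01 to 3.30 CPM per kb. Most neighbours in these orders had ranges that did not overlap. The exceptions were SLC7A11 with SLC43A1 and SLC43A1 with SLC7A6 in Control, SLC3A2 with SLC7A11 and SLC7A6 with SLC43A1 in LV-MEIS1, SLC1A5 with SLC38A1 in HOXB13ko, and SLC3A2 with SLC1A5 in HOXB13ko-LV-MEIS1. These orders hold for merged exons, and the place of SLC3A2 depends on that choice. With its longest transcript as length it was 28.7 CPM per kb in Control and 20.3 in LV-MEIS1, beside 12.8 and 9.02 with merged exons.

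Other transporters at the plasma membrane were then examined from a list of 32 genes, of which 17 were analysed. SLC1A1, a carrier of glutamate and cysteine, was called in more than one comparison. It was 16.9 ± 0.46 CPM (SD, n = 3) in Control, 9.04 ± 1.21 CPM in LV-MEIS1, 27.7 ± 0.51 CPM in HOXB13ko and 31.1 ± 1.26 CPM in HOXB13ko-LV-MEIS1. It differed by 1.74 ± 0.08 on the log2 scale in the MEIS1 pair (limma treat adjusted p = 7.2e-08). Its fall of 0.88 in LV-MEIS1 against Control was on the edge of the rule (limma treat adjusted p = 0.049) and lost the call under 15 of 20 alternatives, 11 of them the omission of 1 library, with log2 fold changes of -0.97 to -0.79. SLC1A1 was also called in the difference of the MEIS1 effects, at -1.04 ± 0.12 (limma treat adjusted p = 0.035). That call was lost under 11 of 19 alternatives, 9 of them the omission of 1 library. SLC6A19, an apical carrier of neutral amino acids, was 0.226 ± 0.09 CPM in LV-MEIS1 and 2.36 ± 0.81 CPM in HOXB13ko-LV-MEIS1, a log2 fold change of 1.94 ± 0.22 (limma treat adjusted p = 3.7e-04). Its level in LV-MEIS1 is little above the value of 3 reads, and its means in Control and HOXB13ko were 0.418 and 2.01 CPM. The authors dropped low genes, so SLC6A19 may have been kept only through the libraries labelled HOXB13ko, where it is high. Its call and its place in the next count may rest on that filter, which was not tested. By treat, 2 of 17 were higher, SLC6A19 among them, and 0 lower in the MEIS1 pair. In HOXB13ko against Control, limma's treat called 0 of 17, where 1 had an unadjusted treat p under 0.05 and 9 passed eBayes. In LV-MEIS1 against Control, 1 of 17 was called. The shares of all genes called by treat in these comparisons were 6.71%, 1.41% and 3.99%, and 32.9% passed eBayes in HOXB13ko against Control. Its genes had a median log2 fold change of 0.18 in HOXB13ko and -0.13 in LV-MEIS1, each against Control. In HOXB13ko against Control, SLC3A2 had the 15th highest log2 fold change of all genes.

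ATF4 and genes known as its targets, members excluded, were examined from a list of 28, of which 27 were analysed. In the MEIS1 pair, 5 of 27 were called higher and 0 lower by treat, with a median log2 fold change of 0.44, where 3.29% of all genes were called as higher. By eBayes 20 were higher and 2 lower there, where 24% of all genes were higher and 26.1% lower. The called genes were DDIT4 (an inhibitor of mTORC1) at 1.33 ± 0.14, GDF15 (a stress-induced secreted factor) at 0.99 ± 0.11, STC2 (a secreted glycoprotein) at 0.98 ± 0.07, ALDH1L2 (a mitochondrial folate enzyme) at 0.96 ± 0.07 and PSPH (the last step of serine synthesis) at 0.78 ± 0.06. Their limma treat adjusted p-values were 9.2e-04, 0.023, 0.0012, 0.0014 and 0.042, and the calls of GDF15 and PSPH were lost under 4 and 12 of 20 alternatives. In HOXB13ko against Control, limma's treat called 0 of 27, where 1.41% of all genes were called, and 0 had an unadjusted treat p under 0.05. By eBayes 13 were higher and 1 lower in that comparison, with a median of 0.17, where 16.5% of all genes were higher. For LV-MEIS1 and Control, treat likewise called 0 of 27 in limma, where 3.99% of all genes were called, and 0 had an unadjusted treat p under 0.05. By eBayes 2 were higher and 13 lower there, the median being -0.20, where 23.2% of all genes were higher and 21.3% lower. Beside treat shares of this size, 0 of 27 is no result about these genes. This list was chosen with earlier results of these data known.

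Genes that use or sense the imported amino acids were examined from further lists. Of 19 genes for branched-chain amino acid and glutamine use, BCAT1, which transaminates leucine in the cytosol, was higher in HOXB13ko (7.29 ± 0.46 CPM, SD, n = 3) than in Control (2.20 ± 1.02 CPM), with a log2 fold change of 1.61 ± 0.23 and a limma treat adjusted p of 0.02. That call was lost without HOXB13ko replicate 1, 2 or 3 and in a fit of the compared groups alone (limma treat adjusted p of at most 0.091), and the log2 fold change lay between 1.25 and 1.84 when any library was left out. In the MEIS1 pair, ARG2 (mitochondrial arginase) and GLUL (glutamine synthetase) rose by 0.99 ± 0.09 and 0.95 ± 0.05 on the log2 scale (limma treat adjusted p = 0.0053 and 2.2e-05). Of the 19, 5.26% were called by treat and 52.6% by eBayes in HOXB13ko against Control, beside 1.41% and 32.9% of all genes. In the MEIS1 pair these shares were 10.5% and 63.2%, beside 6.71% and 50.1%. GLUL was 205 ± 3.75 CPM in LV-MEIS1, 276 ± 2.64 CPM in Control and 397 ± 19.1 CPM in HOXB13ko-LV-MEIS1. Of 35 genes of mTORC1 amino acid sensing, 10 lysosomal transporters and 14 genes of glutathione synthesis and NRF2 response, treat called 0 in all 5 contrasts fitted in limma, with 1 unadjusted treat p under 0.05, in the mTORC1 list for HOXB13ko against Control. Over all genes, treat called between 0.00717% and 6.71% in these contrasts. By eBayes 13 of 35, 2 of 10 and 4 of 14 passed in HOXB13ko against Control, which is 37.1%, 20% and 28.6%, beside 32.9% of all genes. The medians of these lists in that comparison were -0.01, -0.11 and -0.06.

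The genes next to SLC7A5 on chromosome 16 had far smaller differences. Of 20 genes whose lower coordinate lay within 1 Mb of its own, 0 were called by limma's treat in any contrast and 0 had an unadjusted treat p under 0.05. Over all genes, treat called between 0.00717% and 6.71% in the 5 contrasts, so 0 of 20 is no result about these genes. By eBayes 5 of the 20 passed in HOXB13ko against Control and 10 in LV-MEIS1 against Control, where 32.9% and 44.5% of all genes passed. Their log2 fold changes ranged from -0.56 to 0.28 in HOXB13ko against Control, with a median of -0.06. Between LV-MEIS1 and Control they ranged from -0.49 to 0.51, and the median was -0.16. KLHDC4, the nearest gene on one side, was 62.5 CPM in Control and 70.4 CPM in HOXB13ko on average, a log2 fold change of 0.17, and CA5A on the other side was 2.04 CPM and 2.03 CPM.

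**Figure D4:**
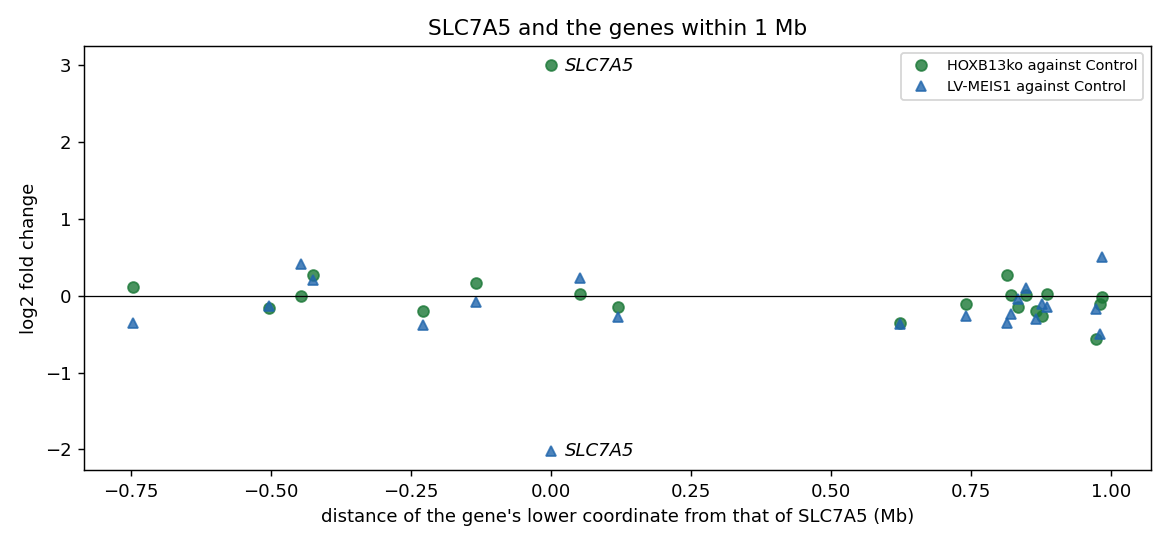
log2 fold change (vertical axis) of SLC7A5 and the 20 genes within 1 Mb by distance of the gene's lower coordinate (Mb, horizontal axis). Circles show HOXB13ko against Control and triangles show LV-MEIS1 against Control. SLC7A5 lies at 3.001 and -2.02, and its neighbours lie between -0.56 and 0.51.

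The genes most like SLC7A5 were ranked by Pearson's r with it over the 12 libraries in log2(CPM + 0.5), among the 11550 genes whose mean reached 5 CPM. They were GALNT10 (an enzyme of O-glycosylation) at 0.997, HSPA5 (the chaperone BiP of the endoplasmic reticulum) at 0.993, RNF165 at 0.993, UNC5C (a netrin receptor) at 0.992 and FAM129A at 0.992. SLC3A2 was 20th at 0.983 and SLC7A1 was 92nd at 0.969. The r of the other members with SLC7A5 was 0.918 for SLC38A1, 0.901 for SLC1A5, 0.827 for SLC7A6, 0.570 for SLC38A2, 0.414 for SLC7A11, 0.172 for SLC43A1 and -0.705 for SLC7A8. These values describe libraries that fall into groups, share one cell line and share each library's scaling, and they have no test. Genes alike in pattern differed in size. HSPA5 was 1742 ± 59.4 CPM (SD, n = 3) in Control, 1308 ± 41.7 CPM in LV-MEIS1, 2422 ± 17.4 CPM in HOXB13ko and 2636 ± 78.9 CPM in HOXB13ko-LV-MEIS1, a log2 fold change of 0.48 in HOXB13ko against Control, where SLC7A5 had 3.001.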

How the data were processed

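RNA-seq of 12 CWR22Rv1 libraries was used. From single-end reads of 50 bp, trimmed with Trimmomatic 0.38, the authors estimated transcript counts with kallisto 0.43.1 against Ensembl GRCh38.p12. The authors formed counts per gene with tximport, dropped low genes and normalised the libraries in edgeR 3.22.2. The deposited values are CPM. The library kit marks strand, but kallisto ran at its default settings, which do not use it. Of 13993 rows, 42 exact repeats were left out and 13951 genes remained. The CPM summed to between 940564 and 992328 per library. Depth was estimated from steps between low CPM values. Between 47.5% and 60.6% of values under 1 CPM lay within 0.1 of a whole multiple, so whole reads could not be recovered for a count model.

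The labels gave each library its group and replicate number. One model was fitted in limma 3.58.1 (R 4.3.3) to log2(CPM + 0.5) of all 13951 genes, with one mean per group, a trended prior and no replicate term. The fold change understates changes of low genes. Treat tested against a fold change of 1.5, after the threshold of the authors' edgeR test on counts, and eBayes tested against no change, both with Benjamini-Hochberg adjustment over all genes and 0.05 as the limit. The difference of the MEIS1 effects was LV-MEIS1 minus Control, less HOXB13ko-LV-MEIS1 minus HOXB13ko. The members, gene lists, naming rule and tests were chosen with earlier results of these data known. Named were the 10 members, HOXB13 and MEIS1, genes of each list called by treat (up to 4 per contrast with the largest change, and PSPH beyond that limit, after its values were seen), the 5 genes most like SLC7A5 and its nearest neighbour on each side. Positions and exon lengths came from GENCODE v44 on GRCh38, which held 13664 of the gene symbols (97.9%), 457 under an older name. Promoter windows came from RefSeq, GRCh38.p14. Alternatives were pseudocounts of 0.1 and 1, a mean of at least 1 CPM, 3 other scalings (quantiles, median of ratios, equal sums), a replicate block, an adjusted p under 0.01, a fit of the compared groups alone, the longest transcript as length, and leaving out each library. Python 3.11.15 with matplotlib 3.10.9 was used for tables and figures.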

Additional observations from a re-analysis of the deposited data

Results flagged for a closer look

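The effect of MEIS1 in cells not targeted at HOXB13 differed from its effect in the HOXB13ko pool for 7 members by limma's eBayes test of the difference itself, and for 34.2% of all genes. SLC7A5 was left out of this count because it was picked on libraries that enter the difference. None of the 7 passed treat in limma, where 2.93% of all genes did. MEIS1 mRNA was lower in HOXB13ko-LV-MEIS1 than in LV-MEIS1, and the part of that in the differences was not tested.

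A negative value means that the LV-MEIS1 effect was lower without the knockout. The difference was -0.53 ± 0.10 (SE, log2) for SLC3A2, -0.30 ± 0.08 for SLC7A1, -0.35 ± 0.11 for SLC1A5 and -0.40 ± 0.13 for SLC43A1, with limma eBayes adjusted p-values of 8.9e-04, 0.0096, 0.027 and 0.034. It was positive for SLC7A8 at 0.83 ± 0.13, SLC7A11 at 0.71 ± 0.16 and SLC38A2 at 0.48 ± 0.09, with limma eBayes adjusted p-values of 2.1e-04, 0.0038 and 0.0012. In all 7, the effect within the HOXB13ko pool was between -0.13 and 0.15. For SLC1A5 the difference was made up of -0.21 in LV-MEIS1 against Control and 0.15 within the pool, neither of which passed eBayes in limma.

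The difference for SLC1A5 lost the limma eBayes call without LV-MEIS1 replicate 2 (adjusted p = 0.06), HOXB13ko replicate 2 (0.057), HOXB13ko replicate 3 (0.07) or HOXB13ko-LV-MEIS1 replicate 3 (0.069). For SLC43A1 it was lost with an equal sum (adjusted p in limma = 0.052) and without Control replicate 1 (0.07), LV-MEIS1 replicate 3 (0.079), HOXB13ko replicate 2 (0.059), HOXB13ko replicate 3 (0.089), HOXB13ko-LV-MEIS1 replicate 2 (0.06) or HOXB13ko-LV-MEIS1 replicate 3 (0.069).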

How the results depend on the processing

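The treat counts of 1, 2, 0, 2 and 1 members in the 5 contrasts were the same under all alternatives that kept the fold change threshold, including each omission of 1 library. These counts include SLC7A5, whose values in HOXB13ko against Control and in the difference of the MEIS1 effects are a description without a test. In the latter SLC7A5 is the 1 member counted, so its stability there is no support. Without that threshold, eBayes called 7 members in LV-MEIS1 against Control, 7 in HOXB13ko against Control, 8 in HOXB13ko-LV-MEIS1 against LV-MEIS1 and 8 in the difference of the MEIS1 effects. No scaling shifted the all-gene median by more than 0.1 on the log2 scale. With the longest transcript as length, the SLC7A5 to SLC3A2 ratio was 1.65 in Control, 0.571 in LV-MEIS1, 3.48 in HOXB13ko and 3.59 in HOXB13ko-LV-MEIS1.

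Signs turned only for values near 0. In HOXB13ko-LV-MEIS1 against HOXB13ko, SLC3A2 was -0.0217 and SLC43A1 was 0.0162 with quantile normalisation, and omission of 1 library gave -0.0428 to 0.0868 for SLC3A2, -0.0130 to 0.061 for SLC7A1 and -0.11 to 0.0668 for SLC43A1. In the difference of the MEIS1 effects, SLC7A6 was 0.00745 with an equal sum, and omission of 1 library gave -0.13 to 0.0412 for SLC7A6 and -0.11 to 0.0362 for SLC38A1. The cause was not tested.

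Same-numbered libraries did not deviate together, with correlations of -0.30 to 0.23 over 18 pairs, 2 of them above 0.1. Of the libraries, 0 correlated best with their own number. Differently numbered libraries of different groups had correlations of -0.37 to 0.37 over 36 pairs, 14 of them above 0.1. Some libraries thus deviated together in a way that the numbers do not follow. A block on replicate number cannot account for that, and its part in the results was not tested. A replicate block left the treat counts of members, SLC7A5 included, at 1, 2, 0, 2 and 1, and moved the count over all genes from 197 to 166 in HOXB13ko against Control. Depth did not limit the members, the lowest of which had 10.9 CPM.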
